A study of Mus musculus with 8 samples.

Results

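miR-574 is a mouse miRNA whose hairpin yields a 5p and a 3p arm, and both were examined on the kidney arrays by name, in every probe and spot that the array's design assigns to mmu-miR-574-5p or mmu-miR-574-3p. These are 2 of the 1023 mouse miRNA names on the array, measured by 6 of its 2645 probes and 80 of its 40920 mouse miRNA spots. The pair was selected on measured values of these same arrays, namely the difference of miR-574-5p between tacrolimus and control and its adjusted p, so that difference between the groups is given as a description and without a test. The 8 samples are kidney RNA of CD-1 mice, an outbred stock. The 4 control samples came from mice given physiological serum and the 4 tacrolimus samples from mice given 1 mg of tacrolimus per kg per day, for 28 days. Tacrolimus inhibits calcineurin and is used against transplant rejection, with kidney injury as a known side effect. The labels give neither age nor sex, describe the tissue as total kidney, and do not say whether each replicate was a separate mouse, so that the spread between replicates may be technical.

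A miRNA is cut from a hairpin transcript as a short duplex, and the arm that is loaded into an Argonaute protein guides it to messenger RNAs, mostly through the seed, bases 2 to 8 of the miRNA. The other arm is often degraded, so the arms of a hairpin can differ widely in level. miR-574-5p is unusual in that it is built almost wholly of alternating U and G. Besides seed-guided repression it has been described as a decoy that binds the RNA-binding protein CELF1, and miR-574 has been described as a repressor of the mitochondrial translation factor gene Fam210a in the heart.

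The Mir574 gene lies on the plus strand of chromosome 5, at chr5:64970318-64970395 in build GRCm38.p6 (RefSeq). It lies within Fam114a1, on the same strand, and within Tlr6, a Toll-like receptor gene on the opposite strand, in the RefSeq annotation. Messenger RNA of these genes was not analysed here. The hairpin is shown with the 5p arm (bases 11 to 33) and the 3p arm (bases 47 to 68) in capitals, because the arms carry the repeats on which the probes lie.
Mir574 hairpin: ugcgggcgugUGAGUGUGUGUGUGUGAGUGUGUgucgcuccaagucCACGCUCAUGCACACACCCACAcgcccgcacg
The mature arms follow, with the seed in capitals, at chr5:64970328-64970350 for 5p and chr5:64970364-64970385 for 3p.
mmu-miR-574-5p: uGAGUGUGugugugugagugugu
mmu-miR-574-3p: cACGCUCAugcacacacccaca
Of the 23 bases of miR-574-5p 21 are G or U (91.3%), 2 are A and 0 are C. The median share of G and U over the 1679 mature mouse miRNAs in the RefSeq table is 54.5%, and miR-574-5p is the 1 entry at or above its own share. Of the 22 bases of miR-574-3p 11 are C. No other entry of that table (0 for either arm) has the same seed as miR-574-5p or as miR-574-3p. A run of 5 or more UG dinucleotides stands in 2 of the 1679 entries (0.119%), miR-574-5p and miR-1187, and miR-1187 was not well above background on enough arrays to be tested.

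The array reads each arm through several short probes that all pair with its 3′ end and differ only in length. The probes are shown with the CA repeat that pairs with the UG repeat of miR-574-5p in capitals.
miR-574-5p, 17-base probe (pairs with bases 7 to 23): acacactCACACACACA
miR-574-5p, 18-base probe (pairs with bases 6 to 23): acacactCACACACACAC
miR-574-3p, 12-base probe (bases 11 to 22): tgtgggtgtgtg
miR-574-3p, 15-base probe (bases 8 to 22): tgtgggtgtgtgcat
The 13-base and 14-base probes of miR-574-3p lie between these ends. The 5p probes were printed as 20 spots each and the 3p probes as 10 spots each. Only 4 of all 2645 mouse miRNA probes (0.151%) hold 5 CA dinucleotides in a row on their own strand, and the other pair belongs to miR-466i-5p.
miR-466i-5p, 15-base probe: CACACACACACACAC
miR-466i-5p, 16-base probe: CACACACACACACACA
Each of these would pair with 13 consecutive bases (4 to 16) of miR-574-5p itself. The mature sequence of miR-466i-5p was not analysed here, so the counts of UG runs and of G and U shares cover the entries of the RefSeq table without it.

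The quality of the arrays bears on dim miRNAs such as these. The share of mouse miRNA probes detected on an array ran from 9.6% to 15.2%. The processed spot signal is an intensity with the background already removed, and the negative control spots of an array, which pair with no miRNA, show what remains without a target. Their SD was 4.45 to 5.46 intensity units on 5 arrays, 9.69 on control 3, 10.5 on control 1 and 20.3 on tacrolimus 4. Tacrolimus 4 was also the 1 array outside the software's range in a quality metric, with the fewest detected miRNAs (147, against 157 to 220 on the others). The slide held its control arrays in row 1 and its tacrolimus arrays in row 2, so that row and treatment cannot be told apart. Kidney tubule and endothelial miRNAs were detected on all 8 arrays (4 of 4 and 2 of 2 markers), while those of liver (miR-122-5p), striated muscle (miR-133a-3p) and neuron (miR-124-3p and miR-9-5p) were detected on 0 arrays. miR-1a-3p, the other striated muscle marker, was detected on 0 control and 2 tacrolimus arrays.

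The probes of miR-574-5p gave a low but detectable signal in mouse kidney, and miR-574-3p was not detectable at this signal. The 18-base probe of miR-574-5p was detected, meaning that at least 0.5 of its spots were well above background, on 6 of the 8 arrays, which were 3 of each group. The exceptions were control 3, where 0 of 18 kept spots were well above background, and tacrolimus 4, where 4 of 18 were. Over all arrays 65.8% of its kept spots (96 of 146) were well above background. The 17-base probe was detected on 2 arrays, tacrolimus 1 and tacrolimus 2, and 30.1% of its spots (43 of 143) were well above background. The scanner software, which applies its own rule, marked miR-574-5p as detected on 8 of 8 arrays and miR-574-3p on 0.

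No probe of miR-574-3p was detected on any array (0 of 32 combinations of probe and array), and 1.34% of its spots (4 of 298) were well above background. Its probe means ran from -11.4 to 31.4 intensity units. The highest of these came from the 15-base probe on tacrolimus 4, the array with the widest negative control spread, where the spot median was 17.04. That probe read 5.77, 8.26, 9.37 and 7.51 units on control arrays 1 to 4 and 12.1, 8.63, 9.08 and 31.4 units on tacrolimus arrays 1 to 4, with tacrolimus 2 and 3 inside the control range. The 12-base probe averaged 1.26 ± 6.31 units on control and -4.42 ± 5.11 on tacrolimus arrays (mean ± SD, n = 4 each), and the 14-base probe 5.45 ± 1.43 and 5.72 ± 2.40. No fold change is given for this arm, since none of its probes was well above background in either group.

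Measured against the negative controls of each array, both 5p probes stood above them and most 3p probes did not. For miR-574-5p this is a description, since only miRNAs well above background on at least 4 of 8 arrays entered the fit on which it was selected. The 18-base probe of miR-574-5p lay 44.5 ± 17.3 units above the negative control mean (SD, n = 8 arrays, 23.9 to 67.1) and the 17-base probe 24.8 ± 11.9 units (14.3 to 46.4). Both were above it on 8 of 8 arrays. For miR-574-3p the distance from the negative controls went with probe length. It was -7.22 ± 6.77 units for the 12-base probe (above on 2 of 8 arrays, adjusted p = 0.0469), -1.53 ± 4.90 for the 13-base probe (2 of 8, adjusted p = 0.506) and -0.055 ± 2.22 for the 14-base probe (3 of 8, adjusted p = 0.953), by a two-sided exact sign-flip permutation test adjusted over all 6 probes. With spot medians in place of means, the 12-base probe lay below the negative control median on all 8 arrays (adjusted p = 0.0156, exact permutation test). The 15-base probe was 5.87 ± 7.84 units above (8 of 8, adjusted p = 0.0156, same exact permutation test, and with spot medians above on 7 of 8 arrays, adjusted p = 0.0234). The 2 miR-574-5p probes entered the adjustment although the detection filter made low p-values likely for them, which lowers the adjusted p of 3p probes. Unadjusted, the exact permutation p by means was 0.03125 for the 12-base probe and 0.00781 for the 15-base probe. No conclusion is drawn from the adjusted p of 0.0469 of the 12-base probe. The longest 3p probe, too, was detected on 0 arrays. The test asks only whether a probe differed from the negative control spots. It cannot tell a target from an offset of the probe itself that recurs on every array. No miR-574-3p signal is therefore read from the p-values of the 15-base probe.

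**Figure D1:**
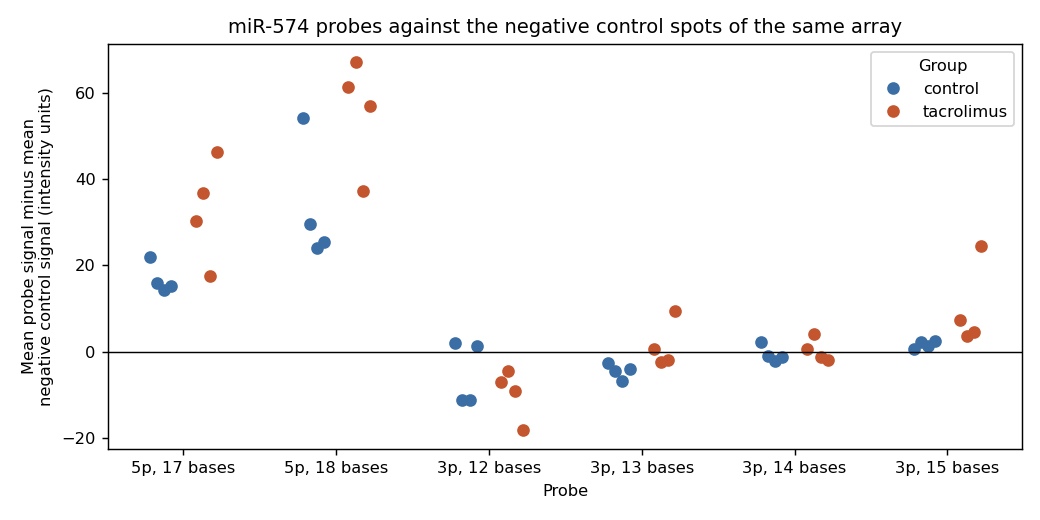
Mean signal of each miR-574 probe minus the mean of the negative control spots on the same array, in intensity units, for 4 control and 4 tacrolimus arrays, with the line at 0 marking the negative controls. Both 5p probes lie above the line on all 8 arrays (14.3 to 67.1 units), while the 12-base, 13-base and 14-base 3p probes lie around or below it.

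In the 18-base probe the mean signal of miR-574-5p before any scaling was 59.2, 35.5, 31.9 and 30.6 intensity units on control arrays 1 to 4. On tacrolimus arrays 1 to 4 it was 66.1, 72.0, 42.0 and 63.9 units. Control 1 stood above tacrolimus 3, so the groups overlapped in these units, at 39.3 ± 13.4 for control and 61.0 ± 13.1 for tacrolimus (mean ± SD, n = 4 arrays each). Control 1 was the array with the brightest detected probes as a whole (75th percentile 2527 units), while tacrolimus 3 (1649 units) and control 3 (1431 units) were the dimmest.

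Each array was therefore divided by its own 75th percentile, taken over 252 probes that were detected on each of the arrays, and log2 was taken, so that 0 marks that percentile. miR-574-5p then stood at -5.42, -5.75, -5.48 and -5.83 on control arrays 1 to 4. It stood at -5.08, -4.98, -5.30 and -5.11 on tacrolimus arrays 1 to 4. After scaling the groups no longer overlapped, the tacrolimus arrays being the higher ones, with tacrolimus 3 and control 1 nearest to each other.

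The group levels were -5.62 ± 0.20 for control and -5.12 ± 0.13 for tacrolimus (mean ± SD, n = 4 each), a difference of 0.50 on the log2 scale (SE 0.111, limma), or 1.42-fold, with a 95% interval of 0.25 to 0.76. This difference is what brought miR-574-5p to attention. Its SE and interval take no account of that selection and are no test of the difference. In the same fit 6 of 194 tested miRNAs, or 3.09%, passed an adjusted p of 0.05 in limma, all of them higher after tacrolimus (3.09%) and miR-574-5p among them. Leaving out any 1 array except tacrolimus 3 left 0 to 2 calls. With the slide column, which is also the replicate number, as a block there were 0 calls in limma (31 at an unadjusted p under 0.05). Each column holds 1 array of each group, so the block cannot change the miR-574-5p difference of 0.50, and its SE became 0.118. For 16 of the 194 (8.25%), again including miR-574-5p, the groups were apart with tacrolimus higher, and for 4 (2.06%) with tacrolimus lower. The median difference over the 194 was 0.04. Counting only differences above 0, 7 of them, miR-574-5p included, had one at least as large as that of miR-574-5p. Nothing is read from its place among them, since these are the values it was selected on. The selection lay close to the threshold, as the 6 miRNAs just inside it shared a limma adjusted p of 0.0476 and miR-551b-3p, just outside, had 0.052.

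**Figure D2:**
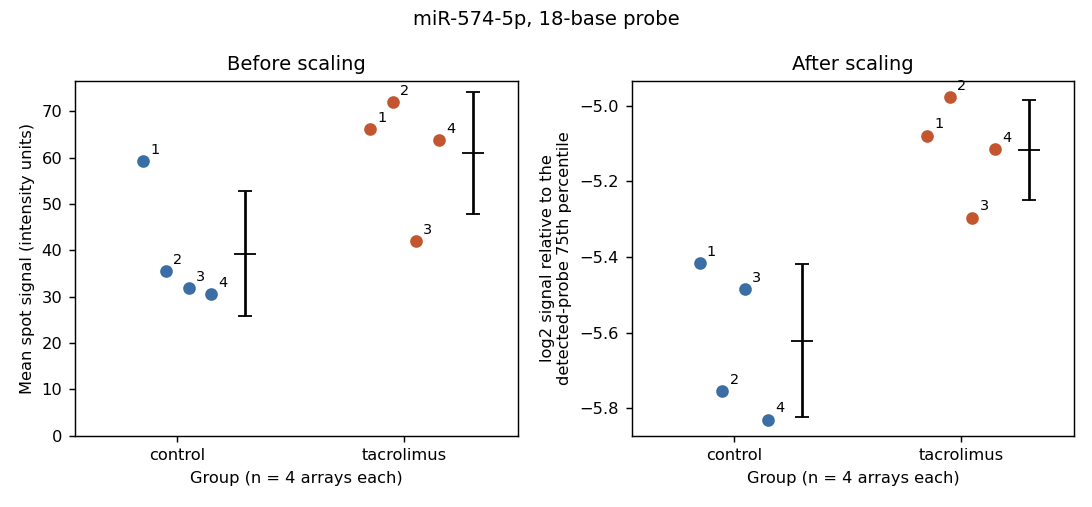
miR-574-5p in the 18-base probe on each array, before scaling (left, mean spot signal in intensity units) and after division by the 75th percentile of detected probes (right, log2), with replicate numbers beside the points and mean ± SD at the side (n = 4 arrays a group). Before scaling control 1 (59.2) lies above tacrolimus 3 (42.0), and after scaling the highest control array (-5.42) lies below the lowest tacrolimus array (-5.30).

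The 17-base probe, which lacks 1 base of the 18-base probe, gave 27.0, 21.9, 22.3 and 20.3 units on control arrays 1 to 4. It gave 35.0, 41.8, 22.04 and 53.2 units on tacrolimus arrays 1 to 4. Tacrolimus 3 lay within the control range, and the other 3 tacrolimus arrays lay above it. The share of its kept spots well above background was 0%, 0%, 0% and 16.7% on control arrays 1 to 4. On tacrolimus arrays 1 to 4 it was 76.5%, 100%, 16.7% and 25%. For the 18-base probe these shares were 55%, 83.3%, 0% and 62.5% on control and 100%, 100%, 100% and 22.2% on tacrolimus arrays. The brightness needed for this mark differed between arrays. A 17-base spot of 40.9 units on control 1 was not marked, while 1 of 25.3 units on tacrolimus 3 was. The shares are therefore not compared between groups. After scaling the 17-base probe was at or below the floor on all 4 control arrays and on tacrolimus 1 and 3. The floor is the median over arrays of the lowest detected signal (-5.96 on the log2 scale), and lower values were raised to it. On tacrolimus 1 the 17-base probe was detected and still lay just below the floor (-5.996). The difference of the 17-base probe was 0.20 with that floor and 0.51 without it.

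Single spots show how much each array mean rests on a few values. On tacrolimus 1 to 3 the kept spots of the 18-base probe agreed closely, with spot SDs of 6.87 to 8.41 units around means of 42.0 to 72.0. On control arrays 1 to 4 the spot SDs were 16.2, 5.55, 5.58 and 9.73 units. On tacrolimus 4 the spot SD was 33.99 units, the brightest kept spot read 153 units and the spot median was 49.5, below the mean of 63.9. The same array's 17-base probe had a spot median of 31.9 and a mean of 53.2. Without tacrolimus 4 the difference of miR-574-5p was 0.39 (SE 0.117), and without both control 1 and tacrolimus 4 it was 0.43 (SE 0.126), with the groups still apart in either case. In either of these fits 0 miRNAs were called in limma (32 and 37 at an unadjusted p under 0.05).

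**Figure D3:**
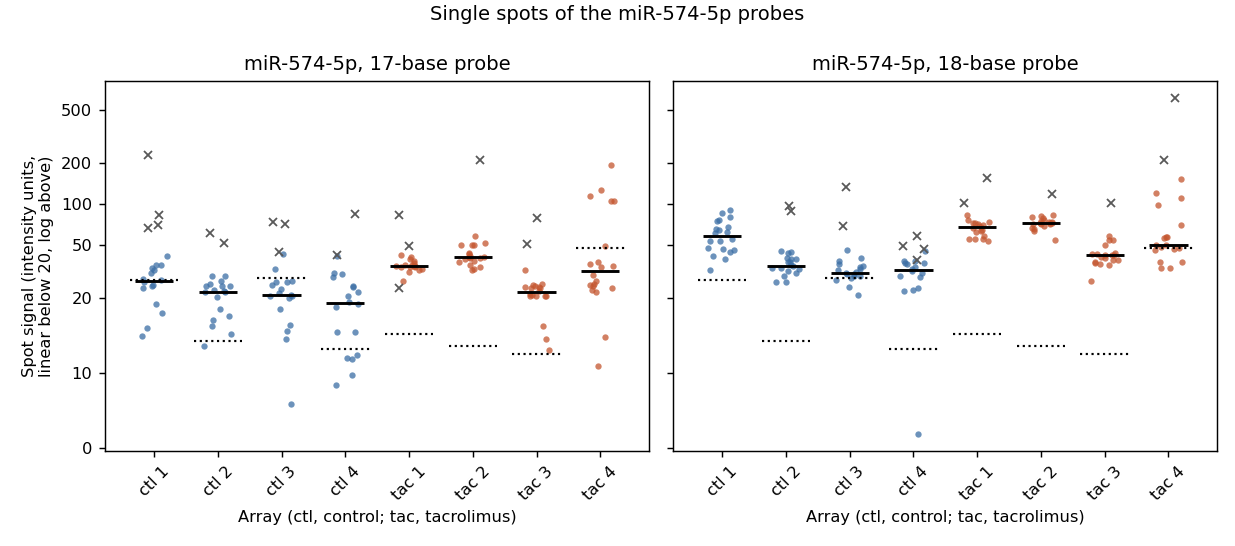
Signal of every spot of the 2 miR-574-5p probes on each array, in intensity units (linear below 20, log above), with kept spots as dots, spots left out as outliers as crosses, the median of kept spots as a solid line and the 95th percentile of the array's negative control spots as a dotted line. Kept spots spread most widely on tacrolimus 4, where the dotted line (47.5 units) lies close to the median of the 18-base probe (49.5 units).

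The deposited value table gave another view of the same spots. Its entry for miR-574-5p equals the total gene signal of the scanner software, 22.9, 22.4, 9.03 and 19.6 units on control arrays 1 to 4. On tacrolimus arrays 1 to 4 the entries were 39.2, 44.4, 24.9 and 18.1 units. Tacrolimus 4 lay below 3 of the 4 control arrays, so the groups overlapped (18.5 ± 6.45 and 31.6 ± 12.2, mean ± SD, n = 4 each). The total equalled the sum of both probes on 5 arrays and the 18-base probe alone on 3, which were control 1, control 3 and tacrolimus 4. These were the 3 arrays with the widest negative control spread, and the entries therefore do not count the same probes on every array. Scaled as above, the deposited table gave a difference of 0.56 (SE 0.193).

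miR-466i-5p, the other miRNA read through CA-repeat probes, had a difference in the same direction but was not called (adjusted p = 0.299, limma). It was well above background on all 8 arrays. In its 16-base probe the scaled signal was -4.31, -4.34, -3.82 and -4.37 on control arrays 1 to 4, and -3.76, -3.58, -3.88 and -4.16 on tacrolimus arrays 1 to 4. Control 3 lay above tacrolimus 3 and 4, so its groups overlapped. The difference was 0.37 (SE 0.155, limma), against 0.50 for miR-574-5p, and its 15-base probe gave 0.44 (SE 0.145). The 95% intervals of the pair, 0.02 to 0.72 and 0.25 to 0.76, overlap widely, and whether the differences differ was not tested. The miR-574-5p interval takes no account of its selection, and neither interval is adjusted for the number of miRNAs tested. The miR-466i-5p and miR-574-5p probes share 11 bases, the most that the 18-base probe shares with a probe of any other name. Names that share 10 bases (miR-3082-5p and miR-32-3p) were not detected on enough arrays to be tested. How far miR-574-5p and miR-466i-5p signals contribute to each other's probes was not tested.

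**Figure D4:**
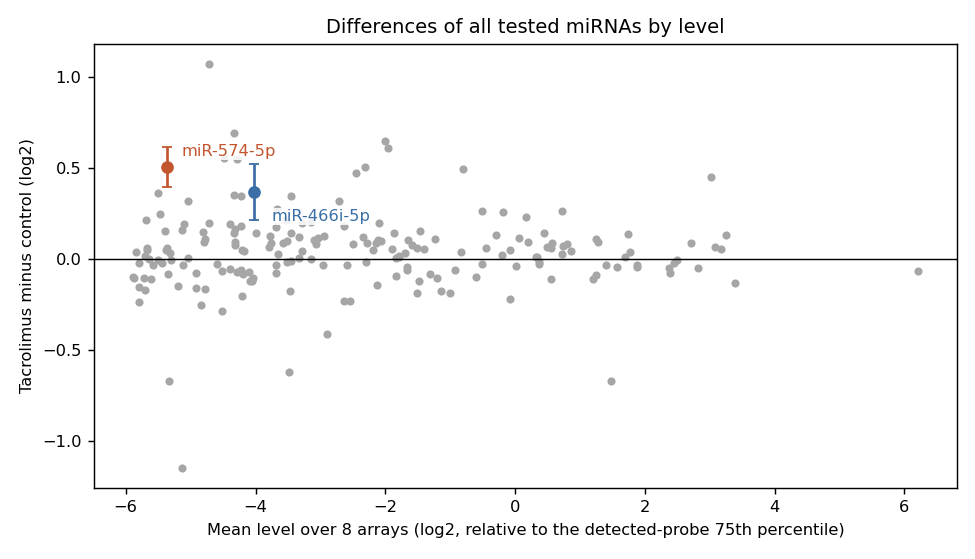
Difference between tacrolimus and control (log2) of each of the 194 tested miRNAs against its mean level over 8 arrays (log2, 0 being the 75th percentile of detected probes), with ± SE for the 2 named miRNAs. miR-574-5p (0.50) and miR-466i-5p (0.37) both lie above 0, where the median of all tested miRNAs is 0.04.

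The array-to-array pattern within each group uses no difference between the groups, and was examined by subtracting from each array the mean of its group. The 2 probes of miR-574-5p did not vary together over all arrays (Pearson r = 0.35, exact permutation p = 0.413, Spearman rho = 0.10, exact permutation p = 0.84, n = 8 arrays). Without tacrolimus 4 and control 1, the arrays farthest from the median in the 17-base probe, r was 0.97, so the low value over 8 arrays rests on those arrays. miR-574-5p and miR-466i-5p gave r = 0.50 (exact permutation p = 0.286) and rho = 0.52 (exact permutation p = 0.243, n = 8), and r = 0.22 without control 2 and control 4. These permutations were made within groups and two-sided. Adjusted over the 2 relations, the exact permutation p-values were 0.413 for either r, and 0.84 and 0.486 for rho.

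The tested miRNAs that followed miR-574-5p most closely in this within-group pattern were miR-199b-5p (r = 0.94) and miR-199a-5p (r = 0.94), both abundant in mesenchymal cells. They were followed by miR-429-3p of the epithelial miR-200 family (r = 0.87), miR-20b-5p (r = 0.84) and the injury-associated miR-21a-5p (r = 0.84). The median r over the 193 other tested miRNAs was 0.34, with a range of -0.80 to 0.94, and miR-466i-5p ranked 57th. All points share their array's scaling and n is 8, so these values are a description. The same control 4 and tacrolimus 3 arrays were lowest in their groups for miR-574-5p, miR-199b-5p, miR-199a-5p, miR-20b-5p and miR-21a-5p. Between the groups miR-199b-5p differed by 0.50 (SE 0.106), miR-199a-5p by 0.47 (SE 0.106), miR-21a-5p by 0.45 (SE 0.126), miR-20b-5p by 0.20 (SE 0.060) and miR-429-3p by 0.01 (SE 0.073). The miRNA with a difference near 0, miR-429-3p, varied mostly on control arrays (deviations of -0.12 to 0.11) and little on tacrolimus arrays (-0.01 to 0.02). No conclusion is drawn from this single miRNA, which was picked by its correlation.

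Markers of kidney cell types and of blood cells are given beside the miR-574-5p difference, and their counts stand against 115 of 194 tested miRNAs above 0 and 3.09% called. The lists were chosen with earlier results of these data known, so calls among them are a description. Under many alternative settings 0 miRNAs were called. Of 4 tubule markers 3 were above 0 (median 0.14) with 0 called, and their mean level was 0.16 to 0.25 on control and 0.26 to 0.43 on tacrolimus arrays. The 2 endothelial markers had a median of 0.01 with 0 called, the tacrolimus arrays lying within the control range of -1.14 to -0.84. Of 4 smooth muscle and stromal markers, miR-199a-3p and miR-214-3p rose (0.49 and 0.69, adjusted p = 0.0476 each, limma) and miR-143-3p and miR-145a-5p stood at 0.03 and -0.08. Their mean level was -2.93 to -2.80 on control and -2.68 to -2.49 on tacrolimus arrays. All 5 leukocyte markers were above 0 (median 0.55), with 0 called, and their mean level was -4.15 to -3.39 on control and -3.54 to -3.23 on tacrolimus arrays. All 3 erythrocyte markers were below 0 (median -0.67), with 0 called, and their mean level was -2.96 to -1.49 on control and -3.01 to -2.61 on tacrolimus arrays. In whole kidney RNA more cells of a type and more RNA per cell cannot be told apart, and the part of these cell types in the miR-574-5p difference was not tested.

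The size of the miR-574-5p difference depended on how low signals were treated. With a floor 2 times as high, all 8 values of the 18-base probe lay at the floor and the difference was 0. With normexp background correction, which adds 50 units to every spot, it was 0.07 (SE 0.090) and the groups overlapped. Over 25 alternatives it lay above 0 in 24, and the groups were apart in 16 and overlapped in 9. Many of the 16 could hardly come out otherwise. Fits that leave arrays out keep arrays that were already apart. The replicate block and the floor 0.5 times as high leave the values of the 18-base probe unchanged. The deposited table repeats the total gene signal. The counts of 16 and 9 are therefore no measure of stability. miR-574-5p passed the threshold in limma in 2 of the 26 alternatives in which calls were counted, median scaling and the fit without tacrolimus 3. It could not pass with a floor 2 times as high or with detection required on all 8 arrays, since it was not tested there.

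**Figure D5:**
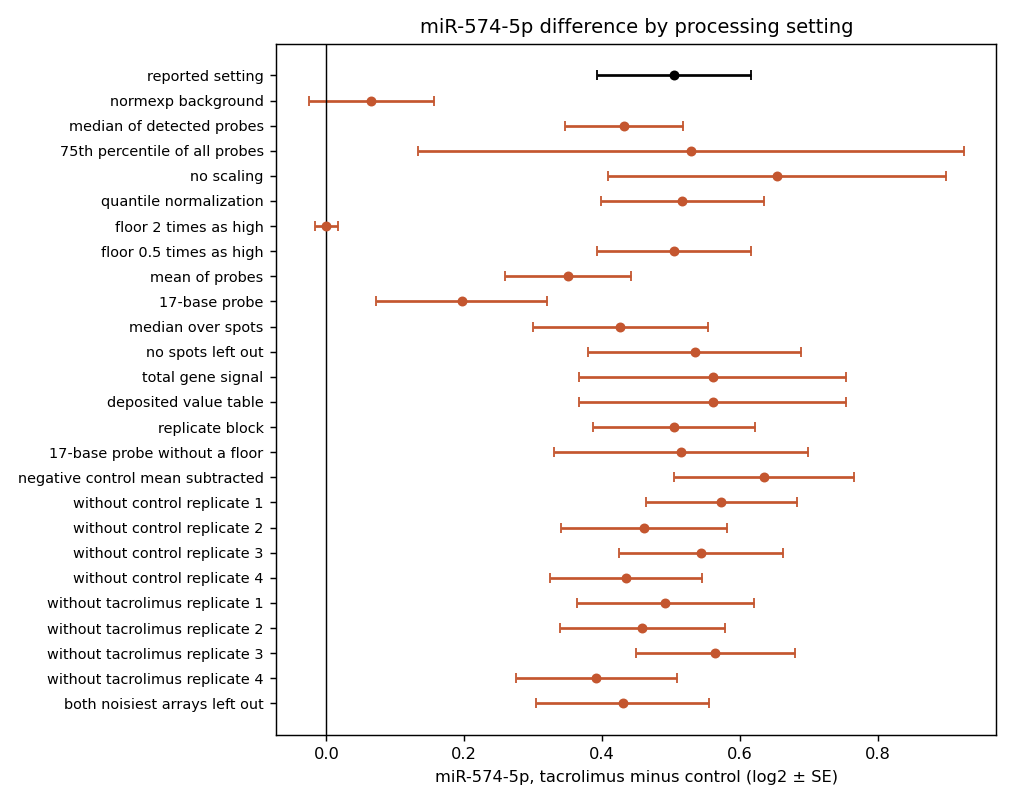
Difference of miR-574-5p between tacrolimus and control (log2, point ± SE) under the reported setting (black) and each alternative (orange), with a line at 0. The values run from 0 with a floor 2 times as high to 0.65 with no scaling, and those that leave out 1 array run from 0.39 to 0.57.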

How the data were processed

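Per the file headers, the deposited scanner files (1 per array) were written by Feature Extraction 10.7.3.1 and hold spot intensities that are background-subtracted and spatially detrended but not scaled between arrays. The deposited value table equals that software's total gene signal (100% of cells, tolerance 1e-06), a linear intensity with undetected miRNAs at 0.1. The submitters' processing notes name limma without a version. The labelling kit named in the labels is one for mRNA.

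Outlier spots were left out (7.36% to 11.2% per array), none was saturated (0), and kept spots were averaged per probe. After scaling, a floor (the median over arrays of the lowest detected signal) was set and log2 was taken. The brightest probe stood for a miRNA. miRNAs detected on at least 4 of 8 arrays were tested (194, with 829 put aside) with R 4.3.3 and limma 3.58.1, without covariates, with Benjamini-Hochberg adjustment. The number of arrays limits the precision. Intervals are limma's.

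The members and lists were chosen with earlier results of these data known. Named miRNAs were the members, the 5 miRNAs most alike in within-group pattern, those sharing a seed or a UG repeat, and those next to the threshold. The CA-repeat probes, the stretches shared with other probes, the negative control comparison and the 2 correlations were added after seeing the data. The planned correlation between arms and the 3p difference were not computed, as no 3p probe was detected on any array. Of 1023 array names, 835 matched the RefSeq table.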

Additional observations from a re-analysis of the deposited data

Results flagged for a closer look

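In 3 of 30 groups of 4 arrays examined for miR-574 and the miRNAs named beside it, 1 array stood far from the other 3. Chance would give 1.5 if the groups were independent, which they are not. The 18-base probe of miR-574-5p and the 16-base probe of miR-466i-5p entered both scaled and unscaled. The count is therefore not set against chance. The 15-base probe of miR-574-3p read 31.4 intensity units on tacrolimus 4, against 12.1 on the next tacrolimus array. miR-466i-5p stood at -3.82 on control 3, against -4.31 on the next control array. miR-20b-5p stood at -2.08 on tacrolimus 3, against -1.98 on the next tacrolimus array.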

How the results depend on the processing

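The miR-574-5p difference of 0.50 moved by more than the replicate SD (0.17) in 3 of 25 alternatives, to 0.065 with normexp, to 0 with a floor 2 times as high and to 0.20 in the 17-base probe with the floor. The replicate block and the floor 0.5 times as high could not move it, and the deposited table repeats the total gene signal. Leaving out 1 array gave 0.39 to 0.57. The count of 6 called miRNAs in limma was 0 without scaling, with scaling to all probes' 75th percentile, a floor 2 or 0.5 times as high, no filter on detection, the mean of probes, the median over spots, no spots left out, total gene signal, the deposited table, trend and robust estimation, negative controls subtracted, and control 1 with tacrolimus 4 left out (2 to 37 at an unadjusted p under 0.05). It was 1 with normexp, 2 with quantile normalization, 5 with detection on all 8 arrays, 8 with median scaling and 0 to 7 without 1 array (0 without control 1, control 2, tacrolimus 1 or tacrolimus 4, 1 without control 3, 2 without control 4 or tacrolimus 2, 7 without tacrolimus 3). The cause of these changes was not tested. With the replicate number as a block the miR-574-5p difference stayed at 0.50 by design (SE 0.118) and the count in limma was 0 (31 at an unadjusted p under 0.05). Same-numbered arrays correlated at 0.11, 0.14, 0.11 and 0.09 in their deviations, all above 0. Without a reference for unpaired arrays, these values do not settle whether the numbers, which are also the slide columns, mark pairs. The reported fit does not take them as pairs. The subtraction of negative controls, the 17-base probe without a floor and the fit without control 1 and tacrolimus 4 were chosen after seeing the data. No miR-574-3p difference was computed, as none of its probes was detected.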
